A study of Mus musculus with 64 samples.

Results

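The 10 genes described here encode activating and inhibitory Fc gamma receptors with their shared signalling chain (*Fcgr1*, *Fcgr2b*, *Fcgr3*, *Fcgr4* and *Fcer1g*) and receptors of the signalling lymphocytic activation molecule (SLAM) family (*Cd84*, *Cd48*, *Slamf7*, *Slamf8* and *Slamf9*). They were taken by name out of 55487 genes counted in murine bone marrow-derived macrophages (BMMs), and all 10 were among the 14537 genes abundant enough to be tested. BMMs were grown for 6 days from bone marrow of female *Ahr*+/+ C57BL/6JRj mice and of C57BL/6 *Ahr*-/- mice, whose sex is not given in the sources used here, 4 per genotype and all aged 8–12 weeks. They were exposed for 6 h to 1 µM benzo(a)pyrene (BaP), a polycyclic aromatic hydrocarbon, to 10 µM indole-3-carbinol (I3C), a dietary indole, or to the solvent alone (0.01% DMSO), and then received 10000000 heat-killed *Salmonella* Enteritidis (hk *S*.E.) per ml for 3 h or 20 h. Further BMMs of each genotype received neither ligand nor bacteria. DMSO is assumed for them, as their labels do not name it, and they are called DMSO alone below. This gave 16 groups of 4 RNA-seq libraries. The *Ahr*-/- line had been crossed back to the wild-type strain and its animals carry the deletion in every cell, so these macrophages had differentiated without the receptor. M-CSF came from medium conditioned by L929 cells.

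Fc gamma receptors bind the constant part of IgG on opsonised particles and immune complexes. FcγRI (*Fcgr1*), FcγRIII (*Fcgr3*) and FcγRIV (*Fcgr4*) signal through the ITAM motif of the common gamma chain (*Fcer1g*), which recruits the kinase SYK and drives phagocytosis, whereas FcγRIIb (*Fcgr2b*) carries an ITIM and recruits the phosphatase SHIP1 (*Inpp5d*). SLAM receptors are immunoglobulin-like surface proteins of haematopoietic cells, most of which bind their own kind on a neighbouring cell and signal through SAP-type adapters. CD48 instead is a lipid-anchored ligand of CD2 and CD244, and SLAMF8 and SLAMF9 have short tails without the adapter motif. Macrophages use both families to sense coated targets and each other.

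Between 12152496 and 233047331 reads per library were assigned to genes (median 24499165). The maximum was an unactivated *Ahr*+/+ replicate at 20 h, and the next largest library, an activated *Ahr*-/- replicate at 20 h, held 50644601. *Ahr* itself does not check the genotype labels here, because its whole-gene count was not lower in *Ahr*-/- libraries (5.11–28.1 CPM, the count relative to the library size scaled by TMM, against 1.09–14.9 CPM) and gene counts do not show which exons were read. *Ahrr*, a direct AhR target, does bear on them: BaP raised it at 3 h in *Ahr*+/+ BMMs by 3.36 ± 0.26 on the log2 scale (SE, edgeR adjusted p = 7.132e-14), the value in *Ahr*-/- BMMs was -0.33 ± 0.47, and the difference between genotypes was -3.69 ± 0.55 (adjusted p = 0.0002042). The summed level of 8 macrophage markers was between 17430 and 35140 CPM in every library. *Lyz2* was the largest single contribution (9526–26570 CPM), so the sum says little about the others. Some of them varied more, with group means of 9.87–295 CPM for *Cx3cr1* and 7.80–104 CPM for *Mertk*. B cell markers summed to at most 6.27 CPM, T and NK cell markers to at most 3.25 CPM and mast cell and basophil markers to at most 1.34 CPM, and *Fcer1a* was at 0 in 64 of 64 libraries.

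Per transcript length, *Fcer1g* was the leading member in both states of the cells. In unactivated *Ahr*+/+ BMMs at 3 h the mean levels, as RPKM (CPM divided by the exon length in kilobases, mean ± SD, n = 4), were 563 ± 52.9 for *Fcer1g*, 165 ± 15.3 for *Fcgr3*, 119 ± 8.72 for *Cd48*, 104 ± 3.83 for *Fcgr1* and 67.5 ± 6.14 for *Cd84*. *Fcgr4* (18.6 ± 4.34), *Slamf7* (18.0 ± 1.43), *Slamf9* (17.6 ± 1.87) and *Fcgr2b* (8.47 ± 1.12) lay far below, and *Slamf8* was at 0.408 ± 0.158 RPKM. *Fcgr4*, *Slamf7* and *Slamf9* did not differ beyond the spread of their libraries. After 20 h of hk *S*.E. the order of the levels in RPKM was *Fcer1g* (1429 ± 93.0), *Fcgr1* (301 ± 26.0), *Slamf7* (258 ± 16.3), *Cd48* (95.6 ± 7.22), *Fcgr2b* (83.9 ± 6.78), *Slamf9* (80.7 ± 5.56), *Fcgr3* (70.2 ± 14.2), *Fcgr4* (62.0 ± 13.2), *Cd84* (32.3 ± 0.866) and *Slamf8* (4.61 ± 0.856). From *Fcgr2b* to *Fcgr4*, neighbours in this order lay within their spread of each other. *Slamf7* and *Fcgr2b* thus moved up among the members and *Fcgr3* and *Cd84* moved down. When the longest transcript replaces the union of exons as length, *Cd84* moves from the fifth to the third place of the first order (123 RPKM) and *Slamf7* passes *Fcgr4*, and the places of *Cd48* to *Fcgr3* in the second order change.

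**Figure D1:**
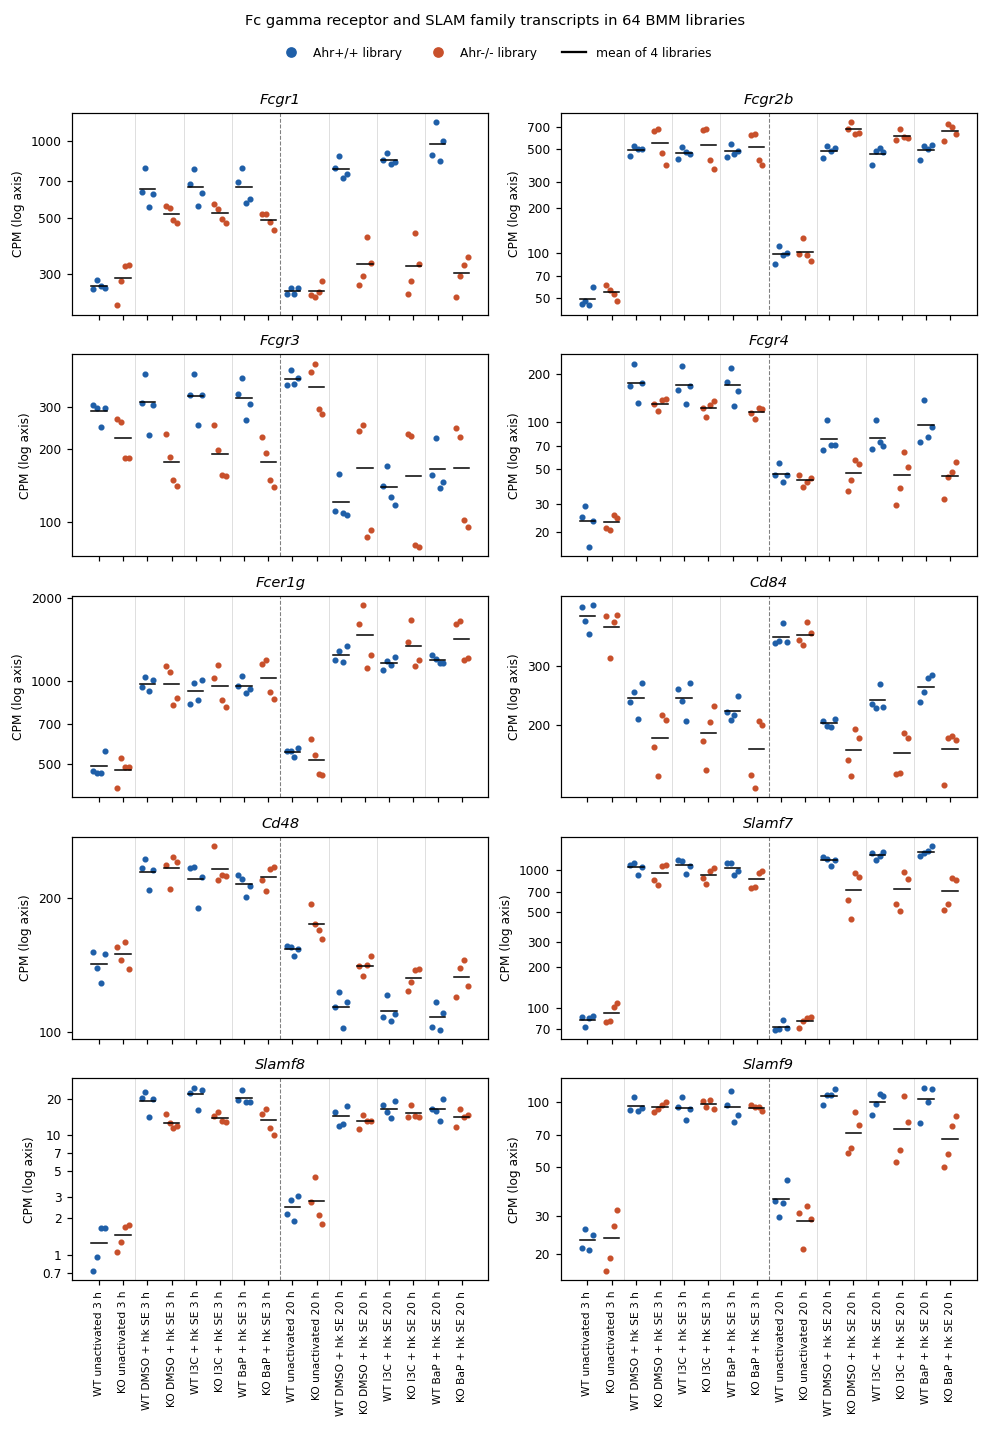
CPM of each member in all 64 libraries on log axes, with 1 point per library, blue for *Ahr*+/+ (WT) and orange for *Ahr*-/- (KO), and a bar at the mean of 4; the dashed line separates 3 h from 20 h. Bacterial activation made the widest steps, whereas the DMSO, I3C and BaP groups of a genotype lay side by side. The widest ratio of group means was 18.7-fold, for *Slamf7* in *Ahr*+/+ BMMs at 20 h, BaP with hk *S*.E. over unactivated.

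Activation was compared first: hk *S*.E. after DMSO against DMSO alone, in each genotype and at each time. In *Ahr*+/+ BMMs at 3 h, 9 of 10 members changed, 8 upwards and 1 downwards (edgeR adjusted p below 0.01, over all genes tested; 56.6% of all genes changed, 24.2% upwards and 32.3% downwards). At 20 h all 10 changed, 7 upwards and 3 downwards (58.6% of all genes, 29.9% upwards and 28.7% downwards). In *Ahr*-/- BMMs 9 members changed at 3 h and 8 at 20 h, where 57.3% and 54.3% of all genes did. The median log2 fold change over the members was 1.65 at 3 h and 1.37 at 20 h in *Ahr*+/+ BMMs, against -0.10 and -0.00073 over all genes, and 1.52 and 0.84 in *Ahr*-/- BMMs, against -0.08 and 0.02. In bulk RNA a change in RNA per cell and a change in the share of cells that carry the transcript cannot be told apart.

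Among the activating receptors, *Fcgr1*, the high-affinity IgG receptor, rose and stayed high. Its levels in *Ahr*+/+ BMMs at 3 h were 261, 283, 269 and 263 CPM without bacteria and 632, 785, 552 and 621 CPM with them. At 20 h they were 250, 264, 250 and 263 CPM without and 783, 873, 719 and 745 CPM with bacteria. The groups were wide apart at both times, with a 2.41-fold rise at 3 h (log2 fold change 1.27 ± 0.13, adjusted p = 2.325e-12) and a 3.04-fold rise at 20 h (1.60 ± 0.13, adjusted p = 8.171e-16).

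*Fcgr3*, a low-affinity receptor for immune complexes, followed another course. At 3 h its libraries read 306, 297, 247 and 298 CPM without and 311, 409, 230 and 306 CPM with hk *S*.E., and the groups overlapped (log2 fold change 0.13 ± 0.29, adjusted p = 0.7193). At 20 h they read 369, 424, 372 and 393 CPM without and 112, 159, 109 and 107 CPM with bacteria, so that every activated library lay below every unactivated one. The fall was 3.20-fold (log2 fold change -1.68 ± 0.30, adjusted p = 2.09e-06). *Fcgr3* and *Fcgr2b* transcripts share sequence, but few read-length stretches: 4 of 1733 windows of the length of a read (0.231%) and 166 of 1733 windows of 50 bases (9.58%) in *Fcgr3* recur in *Fcgr2b*, and reads that mapped to both were not counted.

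*Fcgr4*, which binds IgG2 subclasses, rose early and then receded. Its 3 h levels were 25.0, 29.1, 16.03 and 23.4 CPM without and 168, 234, 132 and 176 CPM with hk *S*.E., a 7.57-fold rise (log2 fold change 2.92 ± 0.21, adjusted p = 4.748e-18). By 20 h the unactivated libraries stood at 45.9, 54.5, 41.1 and 45.6 CPM and the activated ones at 66.1, 102, 71.5 and 71.3 CPM. Groups did not overlap at either time, yet the rise at 20 h was only 1.66-fold (0.73 ± 0.20, adjusted p = 0.0009545) and missed the threshold without the second activated library (0.57 ± 0.21, adjusted p = 0.01319). *Fcer1g*, the chain that all 3 activating receptors need, rose by a similar factor at both times: 475, 466, 465 and 561 CPM against 950, 1034, 922 and 1011 CPM at 3 h (log2 fold change 0.99 ± 0.13, adjusted p = 2.117e-09), with a 2.25-fold rise at 20 h (1.17 ± 0.13, adjusted p = 2.171e-11).

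The inhibitory receptor *Fcgr2b* also rose at both times in *Ahr*+/+ BMMs, with folds above those of the activating receptors, though differences between genes were not tested. Unactivated libraries at 3 h held 45.7, 47.5, 44.3 and 58.6 CPM and activated ones 449, 522, 502 and 500 CPM, a 10.1-fold rise (log2 fold change 3.33 ± 0.17, adjusted p = 6.101e-25). At 20 h the libraries read 84.0, 112, 96.9 and 99.2 CPM without and 431, 520, 483 and 508 CPM with bacteria. The activated level was about equal at both times (20 h over 3 h, -0.02 ± 0.15) and the unactivated level higher at 20 h, which left a 4.96-fold rise (2.31 ± 0.16, adjusted p = 4.263e-19).

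In the SLAM family, *Slamf7*, a self-binding receptor, gave the widest response at 20 h. *Ahr*+/+ libraries read 85.6, 72.7, 84.0 and 87.1 CPM without and 1100, 1126, 931 and 1053 CPM with hk *S*.E. at 3 h, and 69.8, 70.0, 81.7 and 71.5 CPM against 1255, 1210, 1079 and 1182 CPM at 20 h. No unactivated library came near an activated one: the rise was 12.8-fold at 3 h (log2 fold change 3.68 ± 0.18, adjusted p = 7.39e-25) and 16.1-fold at 20 h (4.01 ± 0.19, adjusted p = 2.953e-26). *Slamf8*, which dampens NADPH oxidase activity, started from 0.73, 0.954, 1.68 and 1.66 CPM and reached 20.1, 22.6, 14.1 and 19.9 CPM at 3 h, a 15.6-fold rise from a very low level (3.96 ± 0.23, adjusted p = 4.619e-22), and 5.52-fold at 20 h. *Slamf9* rose 4.10-fold at 3 h (2.04 ± 0.17, adjusted p = 2.013e-15) and 2.97-fold at 20 h.

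*Cd84* was the only member lower at both times after activation in *Ahr*+/+ BMMs. Its libraries, 450, 410, 375 and 458 CPM without bacteria at 3 h, fell to 234, 251, 209 and 268 CPM, and those at 20 h went from 351, 356, 404 and 355 CPM to 205, 198, 198 and 209 CPM. All activated libraries lay below all unactivated ones, by 1.76-fold at 3 h (log2 fold change -0.82 ± 0.13, adjusted p = 2.894e-07) and 1.81-fold at 20 h (-0.86 ± 0.13, adjusted p = 9.304e-08). *Cd48* turned with time: from 151, 139, 128 and 149 CPM it rose to 233, 244, 208 and 231 CPM at 3 h (0.69 ± 0.07, adjusted p = 4.291e-12), and from 156, 155, 148 and 153 CPM it fell to 114, 123, 102 and 116 CPM at 20 h (-0.43 ± 0.07, adjusted p = 9.677e-07).

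**Figure D2:**
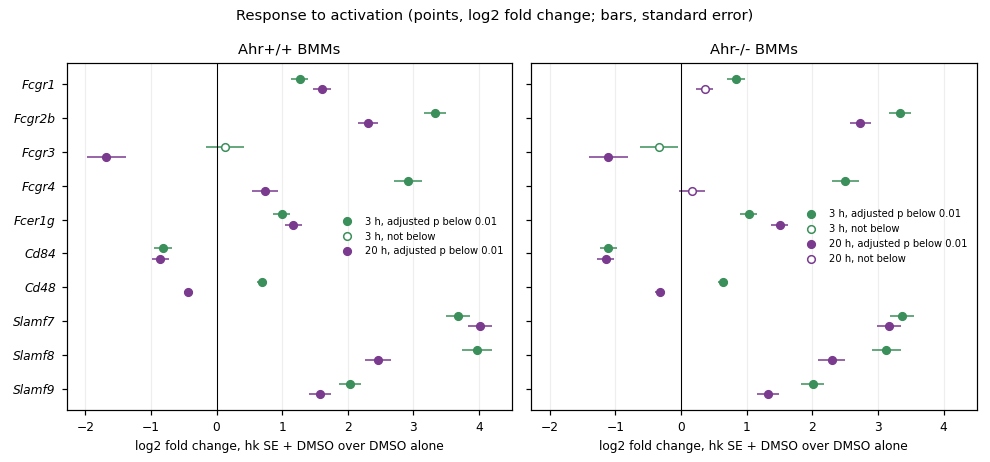
Log2 fold change of each member, hk *S*.E. with DMSO over DMSO alone, at 3 h (green) and 20 h (purple) in both genotypes; bars are standard errors of the edgeR fit and open points have an adjusted p not below 0.01. *Slamf7*, *Slamf8* and *Fcgr2b* lay farthest to the right at 3 h, *Cd84* to the left of 0 in all 4 comparisons, and *Fcgr1* at 20 h far lower in *Ahr*-/- (0.36) than in *Ahr*+/+ BMMs (1.60).

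The change of the response between 3 h and 20 h was tested as the difference of both activation contrasts. In *Ahr*+/+ BMMs it passed for 5 members, all with a smaller or more negative response at 20 h (47.8% of all genes passed, 21.3% in this direction): *Fcgr4* (-2.19 ± 0.28, adjusted p = 2.149e-09), *Fcgr3* (-1.81 ± 0.42, adjusted p = 0.000184), *Slamf8* (-1.50 ± 0.30, adjusted p = 2.279e-05), *Cd48* (-1.12 ± 0.10, adjusted p = 9.59e-14) and *Fcgr2b* (-1.02 ± 0.22, adjusted p = 5.276e-05). In *Ahr*-/- BMMs it passed for *Fcgr4* (-2.34 ± 0.28) and *Cd48* (-0.96 ± 0.10), where 44.7% of all genes did, and for 8 members with the mouse as a block (52.5%). Unactivated cells changed with time as well, in that *Fcgr2b* (1.00 ± 0.15), *Fcgr4* (1.00 ± 0.20), *Slamf8* (1.07 ± 0.24) and *Slamf9* (0.62 ± 0.17) were higher at 20 h than at 3 h in *Ahr*+/+ BMMs (4 of 10 members, against 6.07% of all genes, 3.31% upwards). *Slamf9* lost this call in 7 of 8 analyses that left out 1 library, and *Slamf8* in 3. In activated *Ahr*+/+ BMMs, *Fcgr3* (-1.37 ± 0.30), *Fcgr4* (-1.19 ± 0.20) and *Cd48* (-1.01 ± 0.07) were lower at 20 h (3 of 10 members, against 59.5% of all genes, 26.4% downwards). With the mouse as a block 5 members passed, against 65.3% of all genes, as *Slamf8* was then called lower (-0.43 ± 0.14) and *Fcer1g* higher (0.35 ± 0.08). The unactivated *Ahr*-/- BMMs gave 3 calls (6.98% of all genes), or 5 with the block (14.4%), and the activated ones 4 (56.0%), or 7 with the block (62.4%). The library identifiers of the activated *Ahr*-/- groups belong to a different series at 20 h than at 3 h. Series and time therefore cannot be told apart in these groups. Of the unactivated *Ahr*-/- libraries at 3 h, only replicate 1 shared the series of those at 20 h.

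*S100a8* and *S100a9*, neutrophil markers that macrophages also express, moved with activation at 3 h: the 6 neutrophil markers summed to 12.4–28.2 CPM without and 79.8–177 CPM with hk *S*.E. in *Ahr*+/+ BMMs. *Ly6g*, which defines neutrophils, was at 0 in 35 libraries and at most 0.482 CPM. The 5 dendritic cell markers summed to 0.691–1.53 CPM without and 20.3–39.6 CPM with hk *S*.E. in *Ahr*+/+ BMMs at 20 h, nearly all of it *Ccr7*, and the macrophage markers to 25400–28770 and 18050–22140 CPM. T and NK cell markers went from at most 0.190 CPM to 1.68–2.53 CPM at 3 h, and B cell markers from 3.73–5.41 to 0.533–0.880 CPM at 20 h. The part of these markers in the activation changes was not tested.

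The signalling partners of the receptors are read against the 56.6% and 58.6% of all genes that changed at 3 h and 20 h. Of 26 genes of ITAM signalling, 15 rose and 5 fell in *Ahr*+/+ BMMs at 3 h and 13 rose and 8 fell at 20 h, among them the adapter *Lcp2* (log2 fold change 3.53 ± 0.08 and 2.39 ± 0.07) and *Syk* (1.78 ± 0.07 and 1.46 ± 0.07), both upwards. Of 9 genes of the inhibitory side, 2 rose and 3 fell at 3 h, and 4 rose and 2 fell at 20 h. *Inpp5d*, the phosphatase that FcγRIIb recruits, fell by 2.98 at 3 h and by 1.27 at 20 h on the log2 scale while *Fcgr2b* rose. Of 5 tested SLAM adapters or effectors, 2 rose and 2 fell at 3 h and 1 rose and 3 fell at 20 h, with *Sh2d1b1* (EAT-2) lower at both times (-4.00 ± 0.32 and -1.79 ± 0.24). Apart from *Sh2d1b1*, these genes also belong to the ITAM or inhibitory lists and are counted again here.

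Of the other SLAM receptors, *Ly9* (0.87 ± 0.08) and *Slamf1* (4.66 ± 0.81) rose at 3 h in *Ahr*+/+ BMMs. *Ly9* (1.24 ± 0.08), *Slamf6* (3.95 ± 0.26) and *Slamf1* (6.25 ± 0.49) were higher and *Cd244a*, the CD48 receptor, lower (-1.55 ± 0.21) at 20 h. *Slamf1* and *Slamf6* remained scarce, with at most 7.62 and 16.5 CPM, and *Slamf1* was at 0 in 7 libraries. Of 13 other Fc receptor genes 6 were tested, 2 of which rose and 1 fell at 3 h and 3 rose and 3 fell at 20 h. *Trim21*, the cytosolic IgG receptor, rose at both times (4.19 ± 0.15 and 1.76 ± 0.14), and *Fcgrt*, the recycling receptor FcRn, fell at 20 h (-2.60 ± 0.16). Of 11 other adapters and paired receptors, 7 rose and 1 fell at 3 h, and 7 rose and 3 fell at 20 h. Most of these couple to an ITAM, but the list also holds Hcst (DAP10), which has none, and the inhibitory receptors Pirb and Lilrb4a, of which Pirb was among those that rose (1.12 ± 0.07 and 1.29 ± 0.07). Mincle (*Clec4e*), which pairs with *Fcer1g*, was 4.43 ± 0.30 and 5.61 ± 0.31 higher, and *Trem2* fell by 4.45 at 20 h.

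Except for *Fcgr1* on chromosome 3 (chr3:96282909-96293969, GRCm38, minus strand), the members lie together on chromosome 1, from *Fcgr2b* (chr1:170958617-170976547, minus strand) through *Fcgr4* (chr1:171018920-171029761, plus strand), *Fcgr3* (chr1:171051174-171064935, minus strand) and *Fcer1g* (chr1:171229572-171234365, minus strand) to *Slamf9* (chr1:172475358-172478575, plus strand) and *Slamf8* (chr1:172581758-172590568, minus strand). The interval spans 1632 kb and holds 93 genes, 44 of which are tested genes that are no members. These neighbours include the other SLAM receptors described above, *Ly9*, *Slamf1*, *Slamf6* and *Cd244a*. Of all the neighbours, 15 rose and 11 fell in activated *Ahr*+/+ BMMs at 3 h and 11 rose and 14 fell at 20 h. These counts lie near the share over all genes. Their median log2 fold change was 0.12 at 3 h and -0.01 at 20 h. The direction also differed between members lying side by side, such as *Fcgr4* and *Fcgr3*, or *Slamf7*, *Cd48* and *Cd84*.

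**Figure D3:**
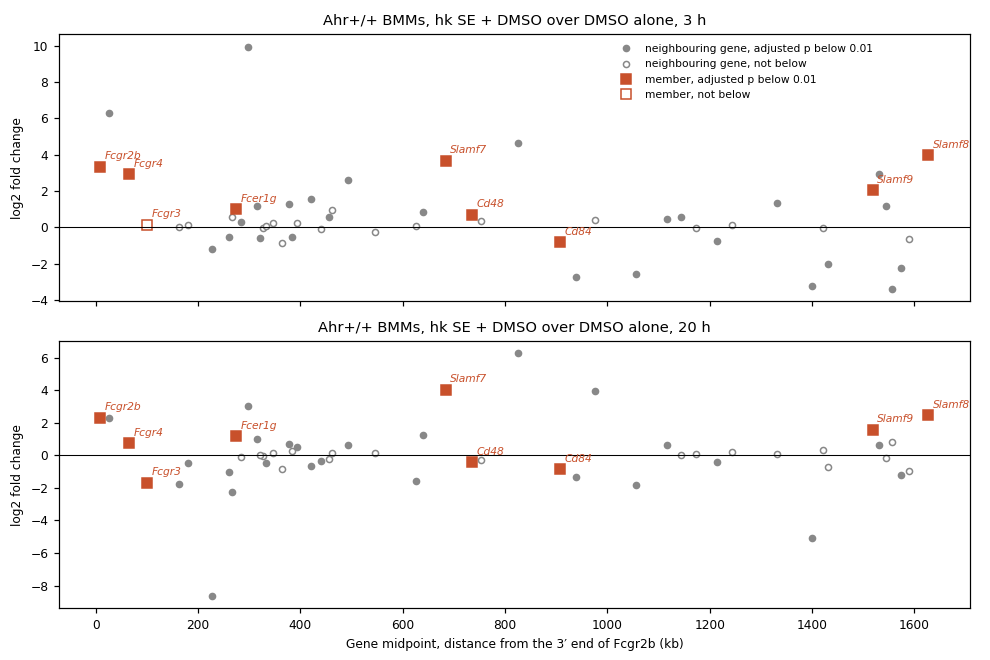
Log2 fold change after activation of *Ahr*+/+ BMMs at 3 h (top) and 20 h (bottom) against the midpoint of each tested gene on chromosome 1, in kb from the 3′ end of *Fcgr2b*; orange squares are members, grey circles the 44 neighbours, and open symbols have an adjusted p not below 0.01. At 3 h *Cd84* alone of the members was called lower, at 20 h *Fcgr3*, *Cd84* and *Cd48* were, and neighbours lay on both sides of 0.

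The promoters of members with unlike courses are shown to set their letters beside the activation data: *Fcgr1* rose and stayed high, *Fcgr4* and *Slamf8* rose more at 3 h than at 20 h, *Slamf7* rose at both times, and *Fcgr3* fell at 20 h. Each line gives the 250 bases before the RefSeq start on the gene's own strand, from GRCm38.p6, at chr3:96293970-96294219 (minus strand, *Fcgr1*), chr1:171018676-171018925 (plus strand, *Fcgr4*), chr1:171059404-171059653 (minus strand, the upstream of 2 RefSeq starts of *Fcgr3*), chr1:172590569-172590818 (minus strand, *Slamf8*) and chr1:171649000-171649249 (minus strand, *Slamf7*). The windows of *Fcgr3* and *Slamf7* lie inside the longer gene models used for counting. Capitals mark letters that match a searched motif on either strand.
*Fcgr1*: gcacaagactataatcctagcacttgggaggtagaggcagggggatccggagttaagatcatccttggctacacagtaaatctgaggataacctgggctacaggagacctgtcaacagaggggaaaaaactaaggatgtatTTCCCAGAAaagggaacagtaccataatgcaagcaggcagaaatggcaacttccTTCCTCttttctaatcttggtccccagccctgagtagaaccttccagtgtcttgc
*Fcgr4*: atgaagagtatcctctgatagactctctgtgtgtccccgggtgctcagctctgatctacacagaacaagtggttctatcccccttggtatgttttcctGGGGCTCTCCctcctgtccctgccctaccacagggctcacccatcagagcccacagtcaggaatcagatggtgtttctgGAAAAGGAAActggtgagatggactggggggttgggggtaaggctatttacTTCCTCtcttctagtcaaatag
*Fcgr3*: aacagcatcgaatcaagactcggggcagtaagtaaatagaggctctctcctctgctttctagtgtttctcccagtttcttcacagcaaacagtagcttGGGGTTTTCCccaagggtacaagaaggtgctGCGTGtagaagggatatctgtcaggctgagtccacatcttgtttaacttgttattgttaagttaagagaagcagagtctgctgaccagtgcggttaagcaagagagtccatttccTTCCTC
*Slamf8*: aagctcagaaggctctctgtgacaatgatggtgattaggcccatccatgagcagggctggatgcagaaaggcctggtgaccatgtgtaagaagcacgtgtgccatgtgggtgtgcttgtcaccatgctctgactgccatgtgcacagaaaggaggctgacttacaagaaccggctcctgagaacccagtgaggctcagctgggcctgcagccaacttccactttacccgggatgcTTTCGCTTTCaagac
*Slamf7*: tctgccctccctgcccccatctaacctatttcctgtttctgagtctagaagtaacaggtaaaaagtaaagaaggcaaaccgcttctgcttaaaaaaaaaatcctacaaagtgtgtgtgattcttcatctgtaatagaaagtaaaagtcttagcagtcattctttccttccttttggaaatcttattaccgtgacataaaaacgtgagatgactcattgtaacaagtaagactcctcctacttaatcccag

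Motifs were searched on both strands in the windows of all 10 members and in 32851 RefSeq windows of the same length, counting positions backwards from the start. The interferon-gamma activated sequence TTCNNNGAA was found in *Fcgr1* alone among the members (positions -109 to -101), and 7.02% of all windows hold it. The core of the interferon-stimulated response element (GAAA, any 2 bases, GAAA) was found in *Fcgr4* (-73 to -64) and, on the other strand, in *Slamf8* (-15 to -6), with 2.98% of all windows. A kappa B motif was found in *Fcgr3* and *Fcgr4*, both at -152 to -143 (3.9% of windows), and the PU.1 core GAGGAA in *Fcgr1*, *Fcgr3*, *Fcgr4* and *Slamf9* (23.3%). The AhR response element core GCGTG was found in *Fcgr3* (-121 to -117) and *Fcer1g* (-12 to -8), where 28.2% of all windows hold it, and the RelB-AhR element GGGTGCAT in none of the 10 (0.463%). No capitals appear in the *Slamf7* window, which says only that these letters are absent from these 250 bases. No 2 of the matches overlapped.

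Genotype was compared next, *Ahr*-/- against *Ahr*+/+ BMMs, the groups being partly those of the activation comparisons. Without bacteria no member differed at 3 h or 20 h (edgeR, 0 of 10 against 1.21% and 0.702% of all genes). At an unadjusted p below 0.05 there were 0 and 1 members, and DESeq2 called 0 at both times. After 3 h of hk *S*.E. none passed either (edgeR, 0 of 10 against 2.83% of all genes, with 5 members and 19.1% of all genes at an unadjusted p below 0.05, and 0 members by DESeq2). After 20 h of hk *S*.E., 5 of 10 differed, where 12.5% of all genes did (7.39% lower and 5.06% higher): *Fcgr1*, *Fcgr4*, *Slamf7* and *Slamf9* were lower and *Cd48* was higher in *Ahr*-/- BMMs. In 7 of 10 members the libraries of both genotypes did not overlap, which held for 20.4% of all genes.

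*Fcgr1* differed most. The *Ahr*-/- libraries read 225, 281, 323 and 324 CPM without and 555, 547, 487 and 474 CPM with bacteria at 3 h, a 1.79-fold rise (log2 fold change 0.84 ± 0.13, adjusted p = 1.427e-07). At 20 h they read 247, 243, 254 and 280 CPM without and 272, 294, 418 and 331 CPM with bacteria. The activated *Ahr*-/- libraries at 20 h were thus only a little above the unactivated ones, whose highest value exceeded the lowest activated one, and all 4 lay below the lowest activated *Ahr*+/+ library. The rise (0.36 ± 0.13 on the log2 scale) was not called at an adjusted p of 0.01453, though it was with the mouse as a block (0.35 ± 0.11, adjusted p = 0.003288) and without knockout mice 1 and 2 (0.49 ± 0.15, adjusted p = 0.004047). Without knockout mice 3 and 4 it was 0.19 ± 0.15 (adjusted p = 0.2657). Between genotypes *Fcgr1* was 2.37-fold lower in *Ahr*-/- BMMs (-1.25 ± 0.13, adjusted p = 3.322e-10).

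The activation response itself differed between genotypes at 20 h for *Fcgr1* alone among the members (difference -1.24 ± 0.19, adjusted p = 5.691e-06), against 4.41% of all genes. It was called in each of 16 analyses without 1 library. At 3 h no member differed in its response (edgeR, 0.0138% of all genes, with 2 members and 5.96% of all genes at an unadjusted p below 0.05, and 0 members by DESeq2), with -0.43 ± 0.18 for *Fcgr1* (adjusted p = 0.727). The response of *Slamf7* at 20 h differed by -0.85 ± 0.23 (adjusted p = 0.01382), which passed with the mouse as a block (-0.89 ± 0.14, adjusted p = 3.902e-06), as did that of *Fcgr4* (-0.57 ± 0.28, and -0.58 ± 0.16 with the block, adjusted p = 0.007424). Over the other analyses of all mice and those without 1 library, the adjusted p ran from 0.00294 to 0.0630 for *Slamf7* and from 0.141 to 0.467 for *Fcgr4*. Without knockout mice 1 and 2 the differences were -0.59 ± 0.13 for *Slamf7* (adjusted p = 0.002682) and -0.36 ± 0.31 for *Fcgr4* (adjusted p = 0.571). Without knockout mice 3 and 4 they were -1.21 ± 0.15 (adjusted p = 5.863e-07) and -0.84 ± 0.33 (adjusted p = 0.08952).

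The other genotype differences at 20 h were smaller. *Slamf7* read 607, 444, 952 and 896 CPM in activated *Ahr*-/- libraries, all below the *Ahr*+/+ libraries (-0.70 ± 0.17, adjusted p = 0.001221). *Fcgr4* read 36.1, 42.8, 56.9 and 54.2 CPM, again all lower (-0.71 ± 0.20, adjusted p = 0.006335), and its activation in *Ahr*-/- BMMs was not called at 20 h (0.16 ± 0.20, adjusted p = 0.4889). *Cd48* was higher with 140, 134, 141 and 148 CPM (0.31 ± 0.07, adjusted p = 0.001486), and *Slamf9* was lower with 58.0, 61.4, 89.6 and 78.0 CPM (-0.56 ± 0.16, adjusted p = 0.009775). These calls were fragile. *Slamf9* lost its call in 7 of 8 analyses without 1 library, *Fcgr4* in 3 (adjusted p up to 0.0571, without *Ahr*+/+ replicate 2), *Slamf7* without *Ahr*-/- replicate 2 (0.0193) and *Cd48* without *Ahr*+/+ replicate 3 (0.0137), whereas *Fcgr1* kept it in all 8.

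*Fcgr2b* stood at 682, 754, 627 and 641 CPM in activated *Ahr*-/- BMMs at 20 h, above every *Ahr*+/+ library, at an adjusted p of 0.01754 (0.48 ± 0.15). *Fcer1g* read 1614, 1893, 1121 and 1246 CPM and overlapped with *Ahr*+/+ BMMs (0.23 ± 0.13, adjusted p = 0.2097). *Fcgr3* read 239, 252, 87.1 and 92.6 CPM, the first pair above and the second pair below all *Ahr*+/+ libraries (0.46 ± 0.29, adjusted p = 0.2851). *Fcgr3* in *Ahr*-/- BMMs was lower than without bacteria (417, 452, 294 and 281 CPM), by 2.15-fold (-1.11 ± 0.29, adjusted p = 0.0009346), and that call was lost without activated replicate 3 or 4 (adjusted p = 0.01062 and 0.01023). Without both knockout mice 1 and 2 it was -1.68 ± 0.21, and without mice 3 and 4 it was -0.84 ± 0.21.

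Knockout replicates 1 and 2 stood apart from replicates 3 and 4 in many genes. Their values did not overlap in 65 of 80 sets of member and group in *Ahr*-/- BMMs (60.2% over all genes) and in 34 of 80 in *Ahr*+/+ BMMs (38.8%). *Fcgr3* was higher and *Slamf7* lower in replicates 1 and 2 in 8 of 8 knockout groups. Without knockout mice 1 and 2, *Fcgr1* (-1.06 ± 0.13) and *Slamf7* (-0.35 ± 0.09) remained lower and *Cd48* (0.34 ± 0.08) higher in *Ahr*-/- BMMs at 20 h, *Fcgr2b* was called as well (0.39 ± 0.11, adjusted p = 0.005315), and *Fcgr4* and *Slamf9* were not. Without knockout mice 3 and 4, 8 members were called (20.7% of all genes), among them *Fcgr1* (-1.46 ± 0.13), *Slamf7* (-1.16 ± 0.11) and *Fcgr3*, which was then higher in *Ahr*-/- BMMs (1.02 ± 0.18, adjusted p = 2.159e-05). The library identifiers fall into different series, and at 20 h all activated *Ahr*+/+ libraries carry identifiers of 1 series and all *Ahr*-/- libraries those of another, so within these groups series and genotype cannot be told apart. Only unactivated groups mix these series, so a covariate estimated from them cannot part series from genotype in activated BMMs. With that covariate, only *Fcgr1* was called (-1.12 ± 0.17, edgeR adjusted p = 1.465e-05, against 3.39% of all genes).

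Some marker genes moved with genotype as well. The 5 dendritic cell markers summed to 20.3–39.6 CPM in activated *Ahr*+/+ BMMs at 20 h and to 3.82–8.54 CPM in *Ahr*-/- BMMs. *Ccr7* made up nearly all of this (highest group mean 26.0 CPM), while *Flt3*, *Zbtb46*, *Xcr1* and *Siglech* reached at most 1.20, 1.23, 0.160 and 0.147 CPM. Their part in the genotype differences of the members was not tested. The macrophage markers summed to 18050–22140 CPM and 19740–31880 CPM in these groups. The partner lists are read against the 12.5% of all genes that differed at 20 h of hk *S*.E. Of 26 ITAM signalling genes, 2 were higher and 4 lower in *Ahr*-/- BMMs (for example *Lat2* at -0.50 ± 0.10 and *Lcp2* at 0.31 ± 0.07). Of 9 genes of the inhibitory side, 2 were lower (*Dok1* at -0.65 ± 0.11 and *Cblb* at -0.54 ± 0.15), and of the other SLAM receptors none of 4. Among the other adapters and paired receptors, *Trem1* (1.72 ± 0.21) and *Clec5a* (0.61 ± 0.13) were higher. *Trem2* (-0.75 ± 0.12) and *Pirb* (-0.29 ± 0.07) were lower, as was *Fcrls* (-0.77 ± 0.14) among the other Fc receptors.

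**Figure D4:**
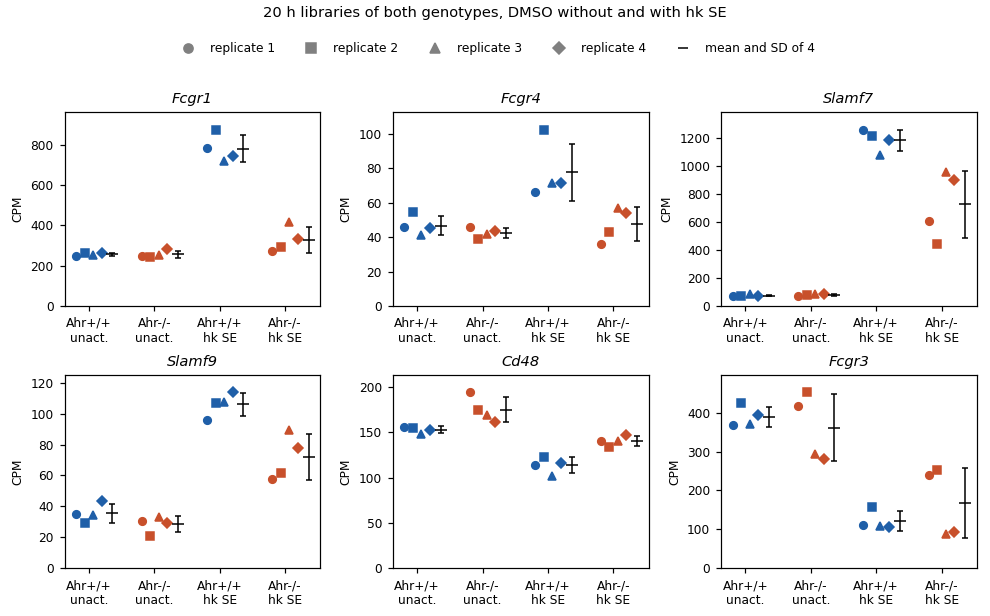
CPM at 20 h of 6 members in single libraries of both genotypes without and with hk *S*.E.; shapes mark the replicate number, and the bar gives mean and SD of 4. Activated *Ahr*-/- libraries of *Fcgr1* lay at 272–418 CPM against 719–873 CPM in *Ahr*+/+, and replicates 1 and 2 of *Fcgr3* lay apart from 3 and 4.

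Ligands were compared in activated BMMs, BaP or I3C against DMSO, with the DMSO groups serving as control for both. No member was called in any of the 8 comparisons (edgeR, against BaP in *Ahr*+/+ BMMs 0.0482% of all genes at 3 h and 0.234% at 20 h, I3C 0.131% and 0.509%, BaP in *Ahr*-/- BMMs 0.0275% and 0.0138%, I3C 0.0206% and 0.206%). The DESeq2 fit made here, without a mouse block, called none either. The study's own DESeq2 analysis, at an adjusted p below 0.01, did list *Fcgr1*, *Fcgr3* and *Cd84* as changed with BaP in *Ahr*+/+ BMMs at 20 h. For this ligand and time the study listed far more genes than the 34 of 14537 called by edgeR here, so the gap is not limited to these members. Why the analyses differ was not tested. By edgeR at an unadjusted p below 0.05 there were 2 members with BaP in *Ahr*+/+ BMMs at 20 h, *Fcgr1* and *Cd84*, and 0 in the other 7 comparisons, while 10.39% of all genes passed this limit with BaP in *Ahr*+/+ BMMs at 20 h. The log2 fold changes ran from -0.18 to 0.45.

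The BaP-exposed *Ahr*+/+ BMMs at 20 h held the widest of these differences. *Cd84* read 205, 198, 198 and 209 CPM after DMSO, 232, 225, 265 and 227 CPM after I3C and 234, 251, 276 and 282 CPM after BaP. All BaP and all I3C libraries lay above all DMSO libraries, and BaP and I3C overlapped. The BaP difference was 1.29-fold (log2 fold change 0.37 ± 0.13, 95% interval 0.11 to 0.62, edgeR adjusted p = 0.222) and that of I3C 0.23 ± 0.13 (-0.03 to 0.48). With the mouse as a block, *Cd84* passed with BaP (0.36 ± 0.09, adjusted p = 0.00957, against 1.86% of all genes), while over the other analyses its adjusted p ran from 0.0475 to 0.481. BaP and DMSO did not overlap in 2 of 10 members, *Cd84* and *Slamf7*, both with BaP higher (4.03% of all genes lay that way).

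*Fcgr1* read 885, 1188, 838 and 1001 CPM after BaP and 842, 902, 811 and 825 CPM after I3C. Each BaP library exceeded the DMSO library of the same replicate number, but the groups overlapped (0.33 ± 0.13, interval 0.07 to 0.58, edgeR adjusted p = 0.3172). *Fcgr3* read 157, 222, 139 and 146 CPM after BaP against 112, 159, 109 and 107 CPM after DMSO, again higher in 4 of 4 replicates and overlapping (0.45 ± 0.29, interval -0.12 to 1.02, adjusted p = 0.6418). *Fcgr4* (0.30 ± 0.20, interval -0.08 to 0.69) and *Slamf7* (0.21 ± 0.16, interval -0.11 to 0.53) also were higher in 4 of 4. The share of all genes that were higher in 4 of 4 was not counted, so this order is a description only. Over the 7 alternative fits, the mouse block among them, the adjusted p ran from 0.06289 to 0.5988 for *Fcgr1* and from 0.05579 to 0.8491 for *Fcgr3*. Without 1 library it ran from 0.1951 to 0.8519 and from 0.4867 to 0.9471. For *Fcgr2b* the interval ran from -0.28 to 0.31, for *Fcer1g* from -0.32 to 0.19 and for *Cd48* from -0.22 to 0.06.

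In *Ahr*-/- BMMs at 20 h the BaP differences ran from -0.12 to 0.12. *Cd84* read 157, 141, 194 and 183 CPM after DMSO and 132, 183, 186 and 180 CPM after BaP (0.01 ± 0.13), and *Fcgr1* read 244, 294, 325 and 349 CPM after BaP (-0.12 ± 0.13). The BaP effect did not differ between genotypes past the threshold in any member (0 of 10 in each of 4 comparisons of a ligand between genotypes, where 0.0138% of all genes passed for BaP at 3 h and 0 in the other 3). At an unadjusted p below 0.05 there was 1 member for BaP at 20 h and 0 otherwise, and DESeq2 called 0. At 20 h the difference was -0.44 ± 0.18 for *Fcgr1* (-0.80 to -0.08, adjusted p = 0.8959) and -0.35 ± 0.19 for *Cd84* (-0.72 to 0.01).

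BaP is a ring hydrocarbon of fused benzene rings and I3C an indole with a hydroxymethyl group, and they were given at different doses, so their values are set side by side without a dose match. A test of BaP against I3C in *Ahr*+/+ BMMs called no member at 3 h (0.110% of all genes) or 20 h (0.282%), with 0 members at an unadjusted p below 0.05 at either time and 0 by DESeq2. At 20 h the difference was 0.29 ± 0.20 for *Fcgr4* (-0.09 to 0.67), 0.21 ± 0.13 for *Fcgr1* (-0.04 to 0.47) and 0.14 ± 0.13 for *Cd84* (-0.12 to 0.39).

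**Figure D5:**
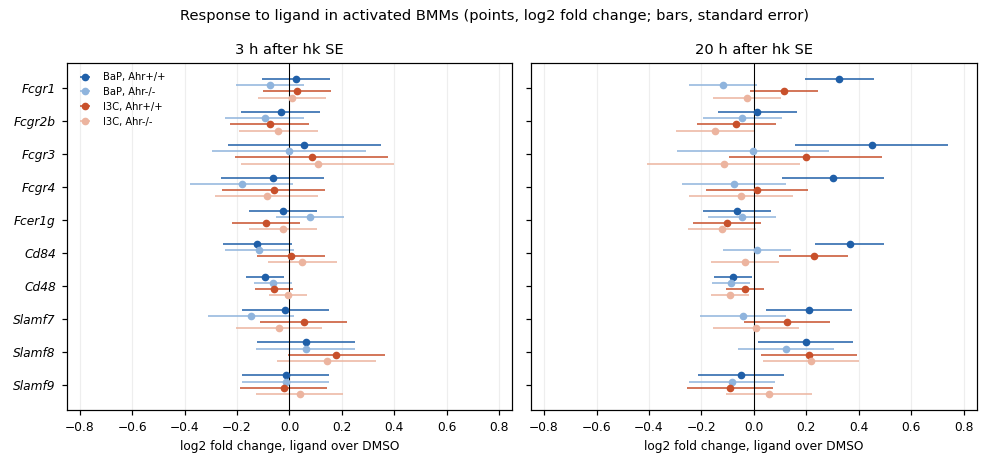
Log2 fold change of each member after BaP (blue) or I3C (orange) over DMSO in activated BMMs, *Ahr*+/+ in dark and *Ahr*-/- in light colours, at 3 h (left) and 20 h (right); bars are standard errors of the edgeR fit. Differences reached 0.45 for *Fcgr3* and 0.37 for *Cd84* with BaP in *Ahr*+/+ BMMs at 20 h, with no adjusted p below 0.01.

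Across the 16 group means, as log2 CPM, the genes most like each member were found by Pearson's r, as a description over groups that share mice and activation. *Slamf7* ran closest with *Il23r* (r = 0.998) and *Cd274* (0.996). *Fcgr1* did so with *Plekhn1* (0.976), *Kdr* (0.973) and *Tmem140* (0.970), and *Fcgr2b* with *Stard5* (0.992), *Il2ra* and *Ebi3* (both 0.988). *Fcgr4* ran with *Scarf1* (0.976), *Fcgr3* with *Wee1* (0.970), *Fcer1g* with *Grap* (0.992), *Cd84* with *Nceh1* (0.990), *Cd48* with *Luc7l3* (0.991), *Slamf8* with *C1ra* (0.991) and *Slamf9* with *Psmb9* (0.986). Between members, r was highest for *Slamf7* with *Slamf9* (0.974) and most negative for *Fcgr2b* with *Cd84* (-0.925).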

How the data were processed

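RNA of 64 BMM libraries (16 groups of 4) was sequenced by the authors as stranded paired-end reads, demultiplexed with bcl2fastq 2.19.0.316, trimmed with AdapterRemoval, aligned with HISAT2 2.1.0 to GRCm38 (mm10) and counted per GENCODE gene with HTSeq 0.9.1, by strand and without multimapping reads. The deposited counts were used as they stood; rows naming no gene (19.2–25.1% of reads) stayed out of library sizes. The deposited log2-scale VST values, made by the authors with DESeq2, served as an alternative only. CPM were scaled by TMM.

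All libraries were fitted together with edgeR 4.0.16 (quasi-likelihood test, 16 group means, filterByExpr with a minimum count of 10), Benjamini-Hochberg adjustment over 14537 genes and a threshold of 0.01, in 30 comparisons. Alternatives were DESeq2 1.42.0 in R 4.3.3, limma 3.58.1 on the VST values, DESeq2 size factors, no filter, only the groups compared, a mouse block, the identifier series as covariate, a threshold of 0.05 and leaving out each library in turn; leaving out knockout mice 1 and 2 or 3 and 4 was chosen after seeing the data. The main script was tested on simulated data. No 2 libraries of a group agreed within sampling noise.

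Each genotype had 4 mice according to the methods, so a replicate number was read as one animal within its genotype. Deviations of same-numbered libraries at the same time point correlated above 0.1 in 32 of 48 pairs in *Ahr*+/+ (median r 0.146) and in 45 of 48 in *Ahr*-/- (median 0.407). Across time points this held for 22 of 64 same-numbered pairs in *Ahr*+/+ (median 0.0778) and 59 of 64 in *Ahr*-/- (median 0.31). Among differently numbered pairs at the same time point it held for 2 of 144 in *Ahr*+/+ and 49 of 144 in *Ahr*-/-, so the numbers mark single animals only in part. Members and gene lists were chosen with earlier results of these data known, and the study itself had picked some of the members from these libraries, so their directions are not independent evidence. All 10 members were named, and from each further list up to 4 genes of lowest p in a comparison. One gene among those most like a member is not reported here. Promoter windows came from RefSeq, and all 10 members matched.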

Additional observations from a re-analysis of the deposited data

Results flagged for a closer look

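In 11 of 160 sets of member and group (6.88%, where chance gives about 1 in 20), the highest or lowest of the 4 libraries stood apart from the others by Dixon's criterion. In unactivated *Ahr*+/+ BMMs these were *Fcgr3* at 3 h (replicate 3, 247.3 CPM), *Fcer1g* at 3 h (replicate 4, 560.7 CPM), *Cd84* at 20 h (replicate 3, 404.2 CPM) and *Slamf7* at 20 h (replicate 3, 81.68 CPM). In activated *Ahr*+/+ BMMs they were *Fcgr3* (158.8 CPM) and *Fcgr4* (102.4 CPM), both in replicate 2 of the 20 h DMSO group, and *Slamf8* in replicate 2 of the 3 h BaP group (23.82 CPM). In *Ahr*-/- BMMs they were *Cd84* in unactivated cells at 3 h (replicate 2, 317.8 CPM) and after BaP at 20 h (replicate 1, 131.9 CPM), *Cd48* after I3C at 3 h (replicate 1, 260.7 CPM) and *Slamf8* after I3C at 20 h (replicate 2, 17.74 CPM).

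In 8 cases the response of a member differed between genotypes or times by a test of the difference itself. The activation of *Fcgr1* at 20 h was smaller in *Ahr*-/- than in *Ahr*+/+ BMMs by -1.244 on the log2 scale. In *Ahr*+/+ BMMs the response at 20 h was below that at 3 h by -1.022 for *Fcgr2b*, -1.808 for *Fcgr3*, -2.185 for *Fcgr4*, -1.117 for *Cd48* and -1.50 for *Slamf8*. In *Ahr*-/- BMMs it was below by -2.344 for *Fcgr4* and -0.9582 for *Cd48*.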

How the results depend on the processing

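Counts of members called in activation at 3 h (9 in each genotype) and in the change of the *Ahr*+/+ response with time (5) were the same whichever single library was left out. Without 1 library the count ran from 9 to 10 for activation at 20 h in *Ahr*+/+ and 7 to 9 in *Ahr*-/-, from 2 to 4 and 3 to 4 for time in unactivated and activated *Ahr*+/+ BMMs, from 2 to 3 and 4 to 6 for time in *Ahr*-/- BMMs, from 2 to 5 for genotype at 20 h of hk *S*.E., from 1 to 2 for the activation response by genotype at 20 h, and from 2 to 5 for the *Ahr*-/- response by time. With the mouse as replicate block the count became 5 for time in activated *Ahr*+/+, 5 and 7 for time in unactivated and activated *Ahr*-/-, 1 for BaP at 20 h in *Ahr*+/+, 3 for the activation response by genotype at 20 h and 8 for the *Ahr*-/- response by time; the pairing changed no other count by over 1.5 times, and direct genotype comparisons have no blocked value because the mice differ. Fitting only the groups compared gave 5 for time in activated *Ahr*+/+ and 2 for genotype at 20 h. DESeq2 gave 2 for the activation response by genotype and 6 for the *Ahr*-/- response by time, DESeq2 size factors gave 6 for the latter, and the VST values gave 2 for time in unactivated *Ahr*+/+, 2 for the activation response by genotype and 5 for the *Ahr*-/- response by time. The series covariate gave 2 for time in unactivated *Ahr*+/+, 1 for time in unactivated *Ahr*-/- and 1 for genotype at 20 h. Without knockout mice 1 and 2 the counts were 1 for time in unactivated *Ahr*-/-, 1 for genotype at 3 h of hk *S*.E., 2 for the activation response by genotype and 4 for the *Ahr*-/- response by time; without mice 3 and 4 they were 1 for genotype at 3 h, 8 for genotype at 20 h, 2 for the activation response by genotype and 7 for the *Ahr*-/- response by time. A threshold of 0.05 gave 5 for time in activated *Ahr*+/+, 1 for genotype at 3 h, 2 for the activation response by genotype and 7 for the *Ahr*-/- response by time. Without knockout mice 1 and 2 the genotype difference turned to -0.20 for *Fcgr2b* at 3 h and to -0.44 for *Fcgr3* at 20 h, neither of which was called either way. The causes were not tested. With 6 of 10 members the level per length moved with the choice of length. Depth limited *Slamf8* most, with 15 reads in its lowest library.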
